A study of Homo sapiens with 8 samples.

Results

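The keratin genes of the human genome lie in a pair of clusters, type I keratins on chromosome 17 and type II keratins on chromosome 12, and CTCF peaks in and around both are described here. KRT18 is a type I keratin that lies at the end of the chromosome 12 cluster, and it is counted with the type II window throughout. Members were the peaks of the control list and of the CBL0137 list whose centre fell in the hg19 windows chr17:38700000-39850000 or chr12:52500000-53400000. These were 73 of 47470 control peaks, 31 in the type I window and 42 in the type II window, and 54 of 29558 peaks of treated cells, 22 and 32 respectively.

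CTCF was mapped by chromatin immunoprecipitation and sequencing (ChIP-seq) with a polyclonal antibody in HT1080, an established line of human fibrosarcoma cells labelled ras positive. Cells were either control or exposed to 3 µM CBL0137 for 6 h, and each condition had 2 ChIP and 2 input libraries, 8 in all. CBL0137 is a curaxin, a small molecule that binds DNA without breaking it. The authors called peaks on both replicates of a condition together, so no value per replicate and no error between replicates can be given for the peaks of these lists. The authors also compared the conditions directly over all libraries, and that comparison was used only for the positions of the sites it lists. No test was run here, and all intervals below are Wilson 95% intervals for counting error alone.

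Keratins are intermediate filament proteins of epithelia. A type I keratin pairs with a type II keratin, and the pairs assemble through a long central helical rod whose end carries a sequence conserved among intermediate filament proteins. CTCF is a zinc finger protein that binds a long DNA motif and, together with cohesin, holds the bases of chromatin loops.

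The bases that code for the end of the rod recur through the results, and examples are shown. They are given 5′ to 3′ as read from GRCh37 on the strand opposite to the gene's coding strand, with the best match to a 12-base core of the CTCF consensus in capitals. The first of these lie under control peaks.
KRT77, chr12:53086213-53086248: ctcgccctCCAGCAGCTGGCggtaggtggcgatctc
KRT12, chr17:39019383-39019418: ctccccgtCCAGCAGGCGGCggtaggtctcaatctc
The capitals of KRT12 also occurred at this place in KRT14, KRT16 and KRT17, which had no peak there in either list. The second set codes for the same place in keratins without a peak there in either list, with 2 or 3 mismatches to the core.
KRT7, chr12:52639373-52639408: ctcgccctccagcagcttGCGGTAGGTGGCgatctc
KRT5, chr12:52910429-52910464: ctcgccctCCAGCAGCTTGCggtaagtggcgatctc
KRT31, chr17:39551108-39551143: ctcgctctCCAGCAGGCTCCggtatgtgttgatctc

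Both windows held more peaks per length than the genome as a whole. The control list had 27 peaks per Mb in the type I window and 46.7 in the type II window, beside 16.7 per Mb over chromosomes 1 to 22 and X. In the list of treated cells these densities were 19.1, 35.6 and 10.4 peaks per Mb. Densities of chromosomes 17 and 12 by themselves were not computed. These values therefore do not show whether either window was dense for its own chromosome. Inside the borders, taken from the outer end of the first keratin gene to that of the last, lay 20 control peaks of the type I cluster (KRT222 to KRT17, 969.9 kb) and 31 of the type II cluster (KRT80 to KRT18, 783.9 kb).

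A control peak was called lost when no peak of the treated list overlapped it by even 1 base, which also covers a peak that fell under the threshold of that list. In the keratin windows 22 of 73 control peaks were lost (30.1%, interval 20.8% to 41.4%), while 42.9% of all control peaks were. The loss was 10 of 31 in the type I window (32.3%, interval 18.6% to 49.9%) and 12 of 42 in the type II window (28.6%, interval 17.2% to 43.6%), and these intervals overlap widely. Chromosome 17 as a whole lost 31.2% of its control peaks and chromosome 12 lost 41.1%, so the type I window was close to its own chromosome by this measure. Between the cluster borders the losses were 8 of 20 for type I (40.0%, interval 21.9% to 61.3%) and 7 of 31 for type II (22.6%, interval 11.4% to 39.8%).

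**Figure D1:**
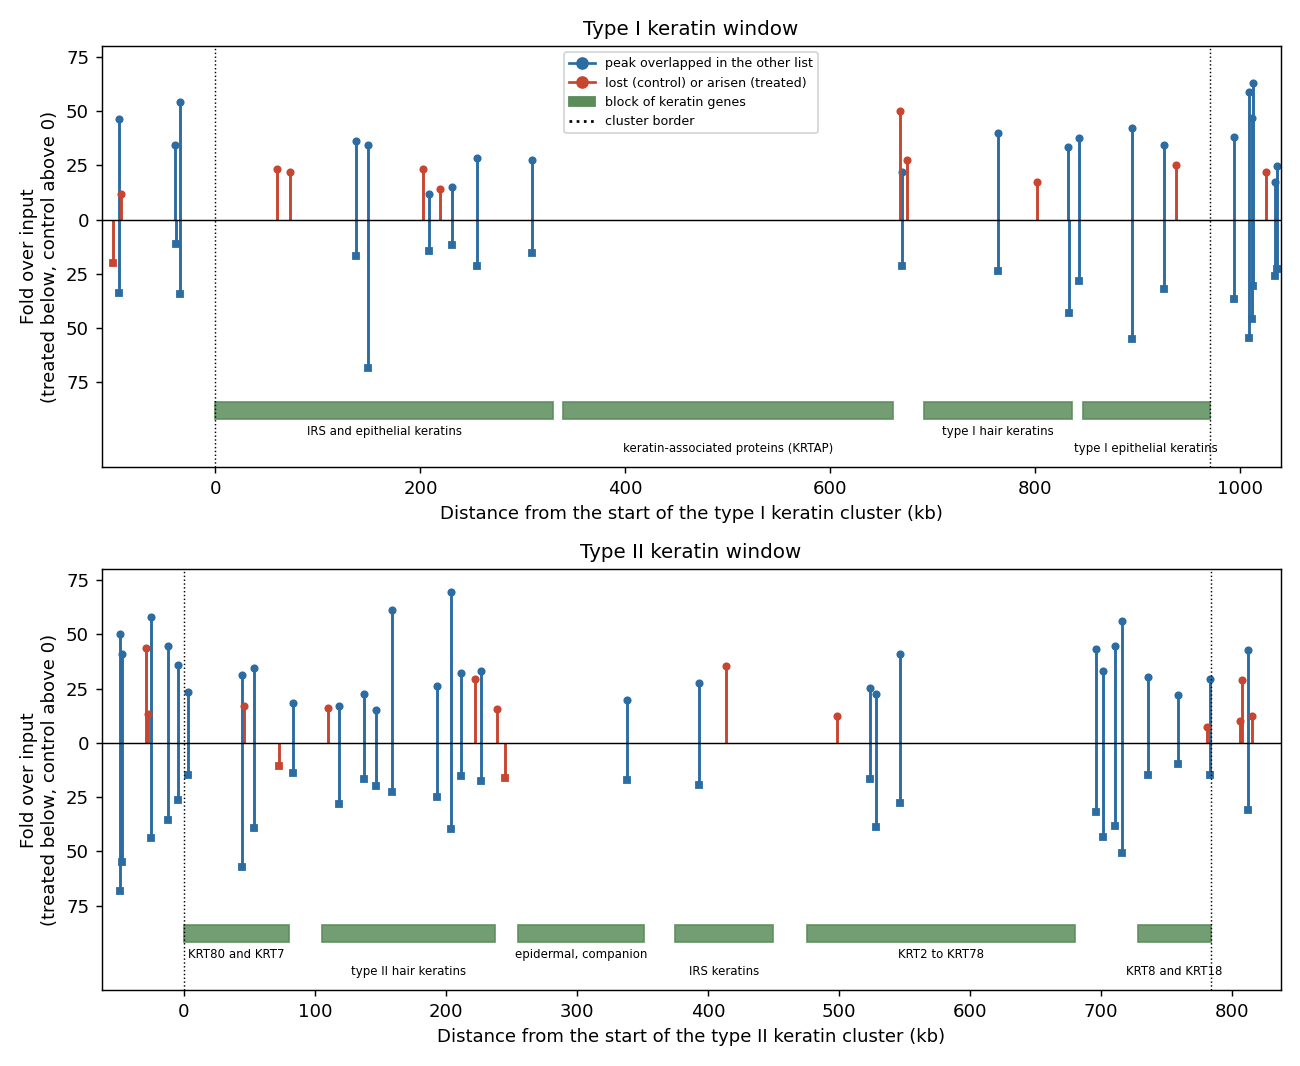
CTCF peaks of both keratin windows. The horizontal axis is the distance in kb from the start of the cluster, and the vertical axis the fold enrichment over input, with control peaks above 0 and peaks of CBL0137-treated cells below it. Blue peaks are overlapped in the other list, red ones are lost (22 above 0) or arisen (3 below 0), green bars are blocks of keratin genes (IRS, inner root sheath) and dotted lines the cluster borders. The block of keratin-associated protein genes holds 0 peaks of either list.

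Lost keratin peaks were the weaker and narrower ones. Fold enrichment over input, as the authors computed it, had a median of 19.68 in the 22 lost peaks and of 34.13 in the 51 that were overlapped, and the ranges ran from 7.094 to 49.9 and from 11.76 to 69.3. All control peaks showed medians of 20.63 in the lost and 34.86 in the shared class. Of the 9 keratin peaks only 100 or 150 bp wide, 8 were lost, beside 84.1% of all control peaks of these widths. Divided by the quartiles of control fold over the whole list, keratin peaks were lost in 11 of 18, 6 of 17, 3 of 18 and 2 of 20 cases from the weakest to the strongest quartile, or 61.1%, 35.3%, 16.7% and 10%. All control peaks gave 80.2%, 51.2%, 28.4% and 11.8%. The keratin share was the lower in each quartile, but its interval excluded the value of all peaks only in the weakest (38.6% to 79.7%). Keratin peaks lay in richer sequence, with a median GC content of 54.8% over 500 bp beside 45.6% for all control peaks. The median was 48.2% in the type I window and 56.2% in the type II window. The part of GC content in the lower loss was not tested.

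**Figure D2:**
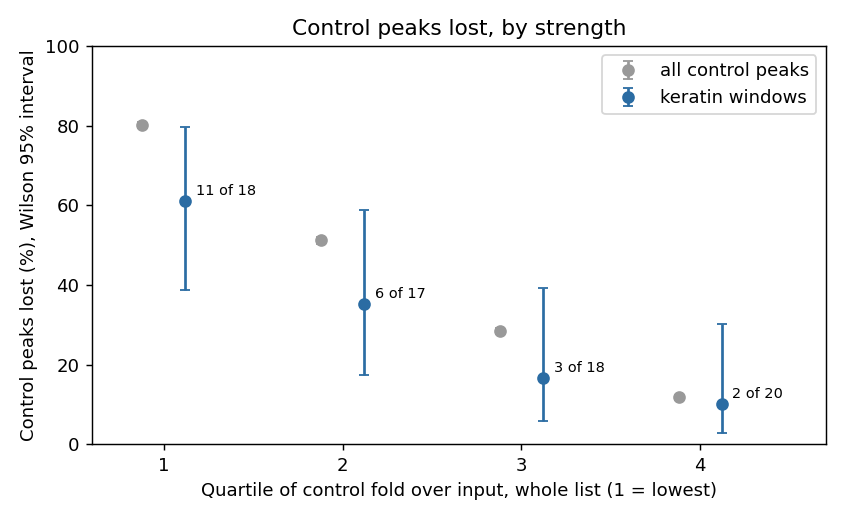
Share of control peaks lost in percent (vertical axis) by quartile of control fold over input in the whole list (horizontal axis, 1 the weakest). Blue points are the keratin windows with the number lost of the number present, grey points are all control peaks, and bars are Wilson 95% intervals. Loss falls from 61.1% to 10% in the keratin windows and from 80.2% to 11.8% over all peaks.

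Shared keratin peaks became narrower more often than wider. Of the 51 shared control peaks, each overlapped by exactly 1 treated peak, 39 were narrower in the treated list, 6 had the same width and 6 were wider, with a median change of -50 bp. Narrower peaks were 76.5% of the keratin pairs and 62.3% of all such pairs. Folds of the lists were computed over different libraries, and peaks were therefore placed by their percentile of fold within their own list. The lists differ in length, 47470 and 29558 peaks, and weak peaks were lost more often, so the percentile of a shared peak can fall without any change at that peak. It was lower in the treated list for 37 of the 51 keratin peaks and higher for 14 (27.5%, beside 35.1% of all shared peaks), with a median difference of -12.6 percentage points beside -9.24 for all shared peaks. The widest differences downward were at an intergenic peak of the type II hair keratins at chr12:52721201-52721650, with percentiles of 97.5 and 36.6, and at chr17:38771751-38772250 outside the type I cluster, with 64.9 and 7.3. Upward they were in an intron of KRT77, an epidermal keratin of sweat ducts, with 31.9 and 72.7, and between KRT80 and KRT7 at chr12:52607151-52607700, with 57.6 and 94.1. The KRT77 site was listed as higher in treated cells in the direct comparison, while the site between KRT80 and KRT7 was listed as higher in control cells.

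**Figure D3:**
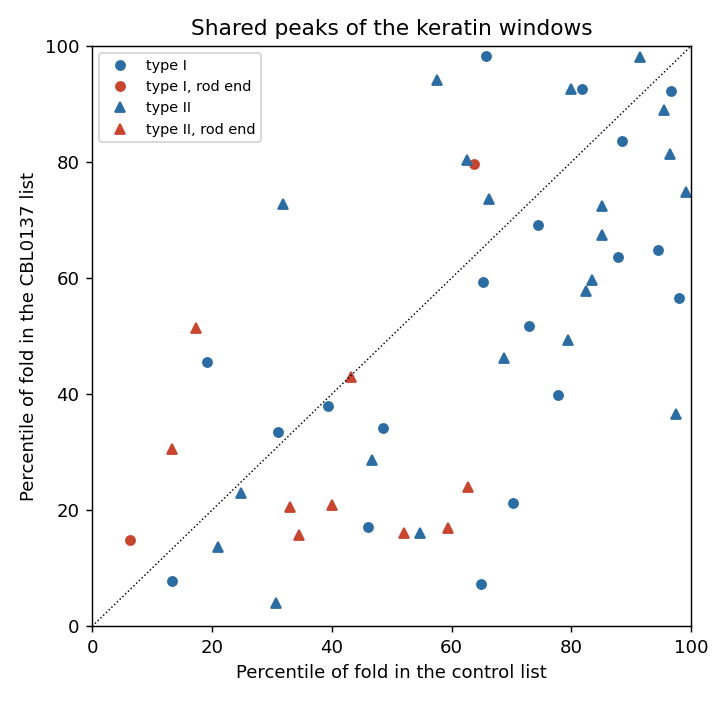
Percentile of fold over input in the control list (horizontal axis) and in the CBL0137 list (vertical axis) of the 51 shared keratin peaks. Circles are the type I and triangles the type II window, peaks over the end of the rod are red, and the dotted line marks equal percentiles. Most points lie under the line, 37 of 51, while 14 lie above it, and the lists behind the axes differ in length (47470 and 29558 peaks).

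By the sites of the authors' direct comparison the windows stood further apart than by loss. Of the keratin control peaks, 31 of 73 (42.5%, interval 31.8% to 53.9%) lay at a site listed as higher in control cells, beside 51.2% of all control peaks. The type I window had 18 of 31 (58.1%, interval 40.8% to 73.6%), above the 42.4% of chromosome 17, and the type II window 13 of 42 (31.0%, interval 19.1% to 46.0%), below the 52.4% of chromosome 12. Inside the borders the figures were 14 of 20 (70%, interval 48.1% to 85.5%) and 8 of 31 (25.8%, interval 13.7% to 43.2%), and these intervals did not overlap. By count the type I window lost a smaller share of its peaks than the whole list and had a larger share at such sites. For both shares, however, its interval included the value of all control peaks. Such sites included 18 of the 22 lost peaks and 13 of the 51 shared ones (81.8% and 25.5%), beside 78.4% and 30.8% of all control peaks of these classes. Sites higher in treated cells were met by 3 of 54 treated peaks, 5.56% beside 7.25% of all treated peaks.

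Only 3 of the 54 treated peaks had no counterpart in the control list (5.56%, interval 1.91% to 15.1%), beside 8.07% of all treated peaks. The first, with a fold of 19.95 and at a site listed as higher in treated cells, lay in coding exon 3 of CCR7, a chemokine receptor gene before the type I cluster (chr17:38711301-38711550). The second, with a fold of 10.85, lay in an intron of KRT7, a keratin of simple epithelia (chr12:52635401-52635500). The third, with a fold of 16.26, lay in the pseudogene KRT90P (chr12:52807701-52807800). The matches of the first and the third had 1 mismatch each, and that of the first is shown as the only one at a site higher in treated cells.
CCR7 exon, chr17:38711419-38711430 in capitals: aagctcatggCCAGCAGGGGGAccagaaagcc

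Within the clusters, peaks were spread unevenly over the gene blocks. The 6 type II hair keratins, keratins of hair, nail and related hard structures, had 10 control peaks in 131.7 kb, or 7.59 per 100 kb, and 2 of these were lost. The last block, with KRT8 and KRT18, the keratin pair of simple epithelia, had 4 peaks in 55.72 kb, 1 of them lost. By contrast, the 5 epidermal and companion layer genes, among them KRT5 and the KRT6 genes, had 1 peak in 96.33 kb, which was shared. In the type I cluster the inner root sheath and epithelial block (KRT222 to KRT40) had 10 peaks, 4 of them lost, and the hair keratins and the epithelial block with KRT14 and KRT17 had 3 each, 1 lost in either. The remaining type II blocks were KRT80 with KRT7 (4 peaks), the inner root sheath keratins (2) and KRT2 to KRT78 (4), each with 1 lost peak. Between the blocks lay 4 peaks of the type I cluster, 2 of them lost, and 6 of the type II cluster, 1 of them lost. Outside the borders, 1 of 4 peaks was lost before the type I cluster and 1 of 7 after it, and the type II cluster lost 2 of 7 before and 3 of 4 after.

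The keratin-associated protein genes, which encode the matrix between hair keratin filaments, had no peak at all. Their block of 34 genes and 322.3 kb lay in a stretch of 358150 bp without a control peak, chr17:39120451-39478600, and the treated list left 360000 bp empty there. Of all gaps between neighbouring control peaks, 1.56% were as long or longer, and the median was 29.9 kb. Among these genes the median distance from the start to the nearest control peak was 90.7 kb, beside 14.1 kb for the 55 keratin genes. The consensus core was not found without mismatch in the block, and neither was it in 4 blocks that held 10 control peaks between them (type I epithelial, epidermal and companion layer, type II inner root sheath, and KRT8 with KRT18). Stretches of 75 bases that occur elsewhere in the genome too made up 5.77% of the empty stretch. Reads with several alignments had been removed by the authors, inexact copies were not counted in this stretch, and the part of either in the gap was not tested.

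The edges of this gap carried different fates. Before it, an intronic peak of KRT39 (fold 27.32) was shared. After it came 3 peaks before the hair keratins, the strongest of which, chr17:39478601-39478950 with a fold of 49.9, was lost although it stood at percentile 91.3 of the control list. Its neighbour with a fold of 21.93 was shared, and the third, with a fold of 27.46, was lost. These lost peaks are shown with the strongest kept and lost peaks of the type II window, since strength and a good match did not go together at each of them.
Lost, fold 49.9, 3 mismatches, chr17:39478755-39478766 in capitals: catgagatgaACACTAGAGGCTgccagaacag
Lost, fold 27.46, no mismatch, chr17:39485762-39485773 in capitals: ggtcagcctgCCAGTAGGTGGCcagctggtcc
Shared, fold 69.3, 1 mismatch, chr12:52766514-52766525 in capitals: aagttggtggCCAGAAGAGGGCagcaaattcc
Shared, fold 61.35, no mismatch, chr12:52721466-52721477 in capitals: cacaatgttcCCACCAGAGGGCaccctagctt
Lost, fold 43.67, 2 mismatches, chr12:52533480-52533491 in capitals: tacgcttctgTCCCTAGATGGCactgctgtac
Lost, fold 35.27, 3 mismatches, chr12:52976963-52976974 in capitals: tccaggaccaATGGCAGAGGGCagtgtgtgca
Lost, fold 29.46, 1 mismatch, chr12:52784948-52784959 in capitals: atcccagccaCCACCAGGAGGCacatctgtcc

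The consensus core was searched on both strands over 400 bp around each peak centre, with at most 1 mismatch. It was found at 42 of 73 keratin control peaks (57.5%, interval 46.1% to 68.2%), at 49.0% of all control peaks, and in 2.81% of windows of the same length 10 kb away from all control peaks. Shared keratin peaks had it in 35 of 51 cases and lost ones in 7 of 22. Put the other way, 16.7% of keratin peaks with a match were lost and 48.4% of those without, beside 27.6% and 57.6% over all control peaks. Of the 11 keratin peaks with an exact match only 1 was lost, the peak of fold 27.46 before the hair keratins printed above. Matches of at most 1 mismatch read on the plus strand in 9 and on the minus strand in 7 peaks of the type I window, and in 18 and 8 of the type II window.

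The strongest peaks of the type I window stood outside its far border. Beyond KRT17, a keratin of skin appendages and wounded epidermis, there were 4 shared peaks between 23.8 and 42.6 kb from the border, with folds of 38.26, 58.89, 47.02 and 62.99. The first of these, chr17:39803951-39805300, was the widest keratin peak at 1350 bp. Before KRT222 the nearest outside peak, at 34.5 kb, had a fold of 54.03 and was shared as well. The outermost peaks within the type I cluster, 60 kb from the start and 33.1 kb from the end, had folds of 23.25 and 25.34, and both were lost.

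At the type II cluster, 7 peaks with folds from 13.28 to 58.0 lay before KRT80, and 5 of these were shared. The nearest, 4.9 kb outside the border, had a fold of 35.69 and an exact match on the plus strand. Beyond KRT18 only 1 of 4 peaks was shared, chr12:53374601-53375100 with a fold of 42.68, and the lost ones had folds of 10.12, 28.75 and 12.47. The outermost peaks within the type II cluster were those on the rod ends of KRT80 and KRT18, both shared. In both clusters the best match of the nearest outside peak lay on the plus strand before the cluster and on the minus strand after it. The matches after the clusters had 2 mismatches, however, and 83.6% of all control peaks had a match with at most 2. After the type II cluster the nearest peak was the lost one with a fold of 10.12.

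A further run of kept peaks stood inside the type II cluster between KRT78 and KRT8. Its 4 peaks, from chr12:53259101 to chr12:53279000, had control folds of 43.32, 33.19, 44.41 and 55.99 and were all shared. Their treated folds were 31.92, 43.29, 38.52 and 50.59, each over the treated input.

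A control peak was centred in the body of a keratin gene or up to 2 kb before its start in 14 of 55 genes. These were 18 peaks, of which 3 were lost, beside 42.9% of all control peaks. Neither share was computed over all genes of the genome, so no background for gene peaks can be given. Promoter peaks were found at KRT20, an intestinal keratin, with control and treated folds of 15.02 and 11.55, and at KRT8, with 30.33 and 14.82. Both were shared and both lay at sites listed as higher in control cells. A peak in an intron of KRT18 also lay within 1 kb of the gene's start and was lost. The lost peaks were weak, with folds of 16.06 in an intron of KRT86, 15.47 before KRT82 and 7.094 at this place in KRT18.

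Of these 18 peaks, 11 lay over the coding bases for the end of the rod. This was seen after the values were known, and it is given as a description. All 6 type II hair keratins (KRT81, KRT82, KRT83, KRT84, KRT85 and KRT86) had such a peak, and so did KRT80, KRT77, KRT18, KRT12 of the cornea and the type I hair keratin KRT36. The bases lay in exon 7 in the type II keratins of this group, in exon 9 of the KRT86 transcript used here, and in exon 6 of KRT18, KRT12 and KRT36. In each of the 55 keratins the best match to the core at this place was recorded on the strand opposite to the gene. Ties between the strands were always given to that strand and were not counted, so the share without ties is unknown.

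Peaks at the end of the rod went with bases close to the core. With at most 1 mismatch, 11 of 16 keratin genes had a control peak at the end of the rod (68.8%, interval 44.4% to 85.8%). With 2 or more mismatches 0 of 39 had one, which allows a share of up to 8.97% by the upper bound of its interval. The genes are related copies and not independent units, so these intervals are likely to be too narrow. In the type II window 9 genes shared the 12 bases of KRT80, and 7 of them had a peak. In the type I window 4 genes shared those of KRT12, and 1 of them had a peak. The same 12 bases thus occurred with and without a peak.

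**Figure D4:**
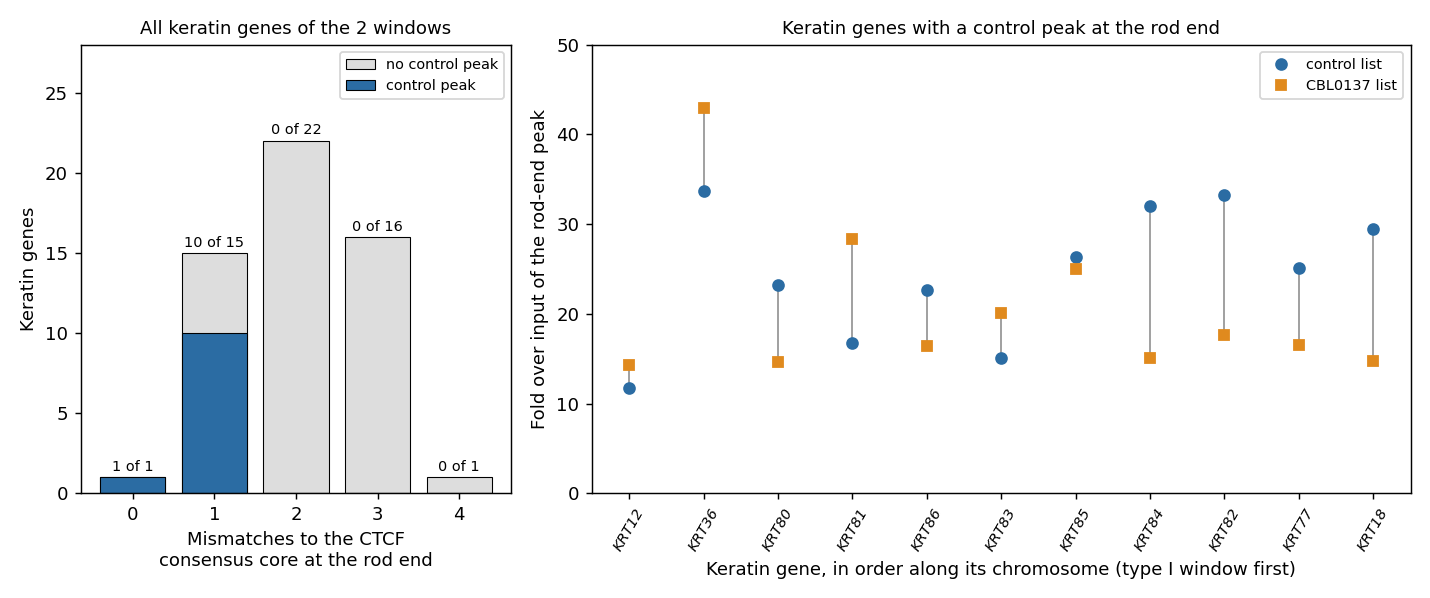
Left, number of keratin genes (vertical axis) by mismatches to the CTCF consensus core in the bases for the end of the rod (horizontal axis), with the genes that have a control peak there in blue: 1 of 1, 10 of 15, 0 of 22, 0 of 16 and 0 of 1. Right, fold over input of the 11 rod-end peaks in the control list (circles) and in the CBL0137 list (squares), each computed over the input of its own condition. All 11 genes have a point in both lists, although the CBL0137 peak of KRT80 does not reach its match to the core.

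None of the 11 rod-end peaks was lost (0%, upper bound 25.9%), while 22 of the other 62 keratin control peaks were (35.5%, interval 24.7% to 47.9%). These peaks lie in related genes, so the upper bound is likely to be too low. At KRT80 the treated peak, chr12:52565901-52566000, met only the edge of the rod-end bases. It ended before their match to the core. Over the genome, control peaks centred in coding exons were lost in 32.9% of cases, although only 3 of the rod-end peaks (KRT12, KRT77 and KRT84) were centred in the exon itself and the others in the adjoining intron. Rod-end peaks were not strong: their control folds ran from 11.76 in KRT12 to 33.66 in KRT36 with a median of 25.15, and 3, 4 and 4 of them stood in quartiles 1, 2 and 3 of the whole list. For coding-exon peaks in those quartiles, losses over the genome were 62.2%, 39.5% and 16.9%.

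This count depended on the threshold and on the overlap that was asked for. With both lists limited to an FDR of at most 1e-05, only 6 rod-end peaks remained in the control list. Of these, 4 were without a counterpart, a larger share than among all control peaks so limited. When the overlap had to exceed 50% of the larger peak, 3 of the 11 were without a counterpart, beside 50.7% of all control peaks. Of the rod-end peaks, 10 were narrower in the treated list, 1 had the same width and none was wider.

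Among the type II hair keratins, KRT84 had folds of 31.99 in control and 15.14 in treated cells, KRT82 had 33.25 and 17.69, and KRT86 had 22.71 and 16.47. KRT81 had 16.74 and 28.33, KRT83 had 15.06 and 20.08, and KRT85 had 26.29 and 25. Outside this block, KRT80 had 23.21 and 14.65, KRT77 had 25.15 and 16.57, and KRT18 had 29.41 and 14.79. KRT12 had 11.76 and 14.33, and KRT36 had 33.66 and 42.92. Each fold was computed over the input of its own condition. At KRT81 and KRT83 the higher treated folds came with narrower peaks, 100 and 150 bp beside 200 and 300 bp in control. The authors' FDR of these treated peaks was 0.00216 and 0.00111, beside 9.93e-07 and 5.93e-07 in control. KRT12 changed in the same directions, while KRT36 kept its width and had a lower FDR in the treated list. The peak on KRT82 also covered an exact match in the neighbouring intron, so the rod end cannot be taken as its only candidate sequence.

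Near copies of these bases limit the reading of single genes. The KRT86 transcript used here runs across the KRT81 gene on the other strand. In the KRT81 and KRT86 peaks, 31.0% and 19.2% of 75-base stretches occurred elsewhere in the genome, and the 150 bp around their rod ends had a copy identical at 100% over at least 75 bp. The rod ends of KRT12, KRT36 and KRT77 had no other copy at 90% identity or more. The 5 keratin genes with at most 1 mismatch but no peak were KRT14, KRT16 and KRT17 with 10, 7 and 7 near copies, KRT8 with 37, and KRT1 with 0. Of the 75-base stretches touching these rod ends, 11.8% had an exact copy elsewhere in KRT8 and 0% in each of the others. At the rod ends of KRT81 and KRT86, which had peaks, this share was 47.3%. KRT80 and KRT18 had peaks in spite of 20 and 42 near copies.

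Similar bases under peaks were also met in pseudogenes. A shared control peak lay in KRT87P (chr12:52645901-52646100, control fold 18.27 and treated fold 13.78) and another in KRT126P (chr12:53109301-53109500, with 40.8 and 27.54). Their matches had 1 mismatch each, and that of KRT126P is shown for comparison with the rod ends of the genes.
KRT126P, chr12:53109387-53109398 in capitals: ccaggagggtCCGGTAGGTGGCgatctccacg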

How the data were processed

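Reads of 8 libraries (2 ChIP and 2 input libraries per condition) had been mapped by the authors to hg19 with Bowtie2 2.2.3, filtered for reads with several alignments and for duplicates with SAMtools 1.5, and used for peak calling with PePr on both replicates of a condition together. Labels name paired-end and the methods single-end sequencing. The deposited lists give each peak a ratio, the authors' fold of ChIP over input, beside a p-value and an FDR. The deposited lists of the direct comparison hold the authors' fold and p-value between conditions, and only their positions were used. Depth per library was not analysed here, and the precision of a fold is therefore unknown.

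Members and lists were chosen with earlier results of these data known. Peaks were shared when they overlapped by at least 1 bp. Genes came from GENCODE 44 lifted to GRCh37, with 1 canonical transcript per gene. The end of the rod was found by a peptide pattern in the translated coding sequence and taken as 36 bases. The pattern for keratin genes of the windows differed from that for other genes. The consensus core was searched over 400 bp. Copies were counted as identical 75-base stretches and with blastn 2.17.0 (150-bp queries, at least 75 bp at 90% identity). Scripts ran under Python 3.11.15 with pysam 0.24.0 for sequences, scipy 1.17.1 for intervals and pandas 2.3.3. Overlaps, copy counts and the consensus search were tested on simulated data. Named were peaks in or up to 2 kb before keratin genes, those nearest to the borders, the 3 strongest and the 3 strongest lost of each window, and arisen peaks. Other peaks and the rod ends were named after their values were seen. Peaks on other contigs were left out of sequence measures. Alternatives are given in the closing section. Some rod-end sequences are not reported here.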

Additional observations from a re-analysis of the deposited data

How the results depend on the processing

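No paired analysis was possible because each deposited list pools the replicates of its condition. For the same reason results without replicate 1 or replicate 2 were not run. The control list was also cut to as many of its strongest peaks as the treated list holds. The share of control peaks lost was then 15.0% in the type I window, 15.4% in the type II window and 15.2% in both. Of all control peaks so kept, 24.6% were lost. Of the 54 treated keratin peaks, 15 then had no counterpart, beside 24.4% of all treated peaks. These changes follow from the cut, which takes the weaker control peaks away. Under the other alternatives the share in both windows ran from 29.4% to 37%, below that of all control peaks each time. When the overlap had to exceed 50% of the larger peak, 8 of the 54 treated peaks had no counterpart in place of 3, beside 20.8% of all treated peaks. An FDR of at most 1e-05 left 21 treated peaks in the type II window in place of 32. Between the cluster borders the type I window had 20 control and 12 treated peaks. The consensus core was found at 15.1% of keratin control peaks without mismatch and at 91.8% with at most 2 mismatches, beside 13.9% and 83.6% of all control peaks. The alternatives for the rod-end peaks were chosen after seeing the data. The lists give no depth or read count per replicate, which limits what the fate of 1 peak can show.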

Other observations

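The end of the rod was also looked at in intermediate filament genes outside the keratin windows. They were found by a peptide pattern, and this step was added after the keratin values were seen. The set was not complete, since the chromosome of the neurofilament genes NEFL and NEFM was not searched. VIM, the vimentin gene of mesenchymal cells, had a control peak over these bases (fold 19.78, chr10:17277251-17277500) and none in the treated list. GFAP, the filament gene of astrocytes, had a control peak with a fold of 26.52 and a treated peak with a fold of 25.13. Both had 1 mismatch to the core, and DES, the desmin gene of muscle, also had 1 mismatch but no peak. PRPH, INA and NEFH had 2, 3 and 4 mismatches and no peak. In INA and NEFH the bases were split by an intron. The match was sought in the spliced coding sequence, so in these genes it need not occur in genomic DNA.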
